A study of Macaca mulatta with 36 samples.

Results

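The interleukins and their receptors were read in the hippocampus of 18 male rhesus macaques, 9 with simian immunodeficiency virus encephalitis (SIVE) and 9 uninfected controls. Members are genes whose symbol starts with IL and a number, each read at 1 probe set, the one with the highest mean over all 36 arrays. The rule found 72 genes among the 14132 that the array's annotation names singly. By symbol 34 of them are receptors, with an R after the number, and 38 are ligands. A few symbols do not match their role. IL1RN and IL36RN carry the R but encode secreted antagonists, IL6ST lacks it but encodes a receptor chain, and IL4I1 is an enzyme that breaks down amino acids. By role the 72 are 36 cytokines, 33 receptor chains, 2 antagonists and 1 enzyme.

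Interleukins are secreted proteins by which immune cells, and in the brain also microglia, astrocytes and vessel cells, signal to one another. Each binds a receptor of 1 or more chains on the target cell, and some chains are shared by several interleukins, so that a chain can limit the response to more than 1 ligand. The interleukin-1 family signals through Toll-like adaptor proteins and is held back by natural antagonists, while most other interleukins signal through JAK kinases and STAT transcription factors.

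Total RNA was hybridized to Affymetrix rhesus arrays, with 2 arrays per animal that were averaged, so the animal is the replicate. Ages ran from 2 to 6 years in SIVE and from 3 to 8 in controls. Anti-CD8, a treatment against the surface protein of cytotoxic T cells, is recorded for 4 animals with SIVE, each aged 6, and for 2 controls aged 3 and 4. It is recorded as not given for 5 animals with SIVE and 7 controls. No infected animal without encephalitis is in the series, so infection and encephalitis cannot be told apart. Nor can more cells of a type and more RNA per cell be told apart in bulk tissue. Values are RMA signals on the log2 scale with a median probe set level of 5.65, and the higher group mean of 37 of the 72 members (51.4%) lay below that level, against 27.5% of all genes. The 5 measured neuron markers and the 7 of hippocampal principal cells all lay above it. SIVE 2, SIVE 3 and Control 8, all with the anti-CD8 label, had a 3′ minus 5′ signal of control transcripts, a sign of RNA quality, of 0.955 to 1.45, against 0.104 to 0.466 in the other 15 animals. Between SIVE (0.442 ± 0.374, SD, n = 9) and controls (0.415 ± 0.394, n = 9) it differed by 0.0271 (exact permutation p = 0.917, two-sided).

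The comparison of SIVE with control animals asked which interleukin transcripts differ in the encephalitic hippocampus. IL1B, IL1RN, IL15, IL15RA, IL10RA, IL10RB, IL6R and IL13RA1 rose, and no member fell in the fit reported. In 6 of 31 alternative settings 1 to 4 members were called lower. With quality weights per animal 16 members were called, 12 higher and 4 lower (IL10, IL17D, IL36A and IL37). With the anti-CD8 label as a covariate 12 were called, of which IL12B, IL17D, IL25 and IL36A were lower. The shares of all genes called in these settings are not given here. The added calls therefore cannot be told apart from a general rise in calls. The 8 genes that rose (11.1% of 72) passed limma's test at an adjusted p of 0.05 (Benjamini-Hochberg over 52707 probe sets), where 5.72% of all 14132 genes were called higher and 1.51% lower. The 8 comprise 2 of 36 cytokines, 5 of 33 receptor chains (15.2%) and 1 of 2 antagonists. By symbol they are 2 of 38 ligands (5.26%, near the share of all genes) and 6 of 34 receptors (17.6%). In 5 of the 72 (6.94%) every SIVE animal lay above every control, against 1.84% of all genes. The median difference was -0.08 over the members and -0.02 over all genes. At an unadjusted p below 0.05 there were 25 members (34.7%), 12 higher and 13 lower, against 25.6% of all genes.

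**Figure D1:**
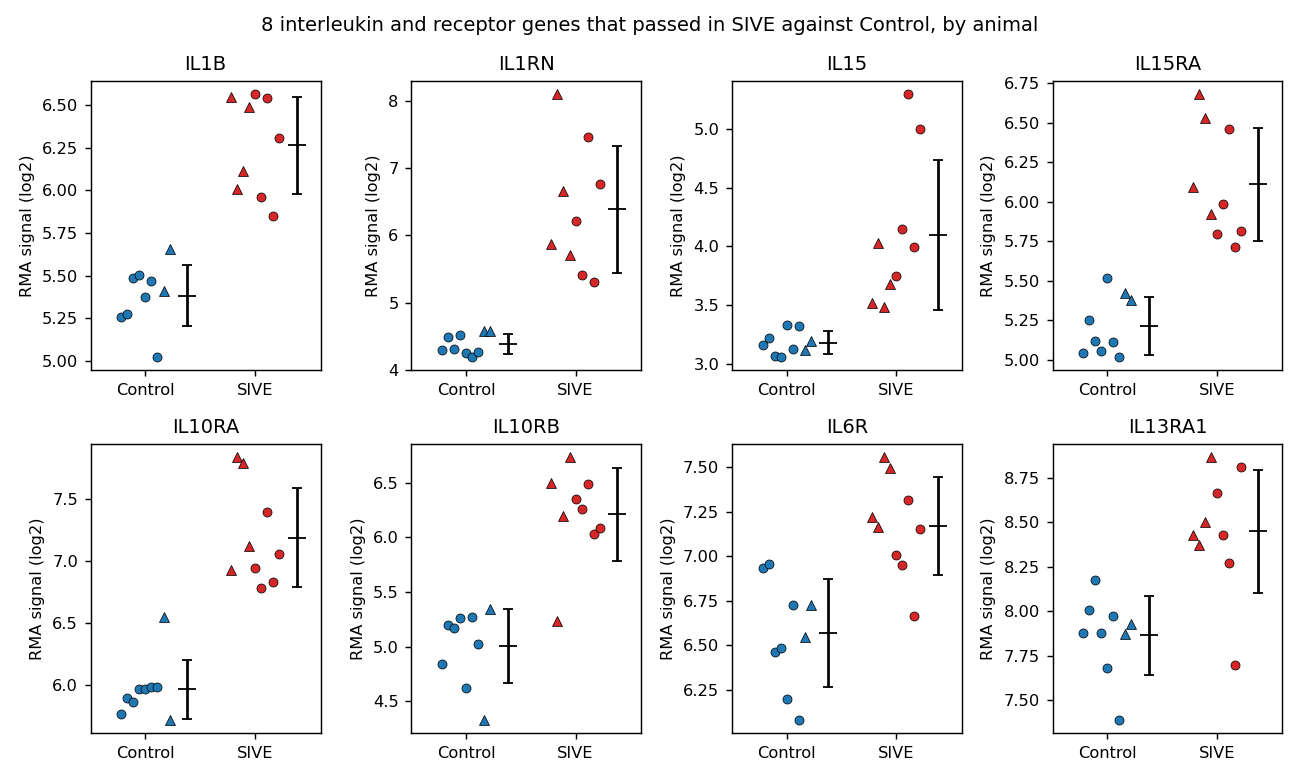
RMA signal (log2) of the 8 genes that passed in SIVE against Control, 1 point per animal (mean of 2 arrays); triangles carry the anti-CD8 label, and the bar beside each group is the mean ± SD of 9 animals. The groups do not overlap for IL1B, IL1RN, IL15, IL15RA and IL10RA, while SIVE 2 for IL10RB, SIVE 8 for IL13RA1, and SIVE 8 and SIVE 6 for IL6R lie within the range of the controls.

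In the interleukin-1 family, the inflammatory cytokine and its natural brake both rose. IL1B encodes interleukin-1 beta, which activates endothelium and glia and is made mainly by microglia and macrophages in the inflamed brain. Its log2 signal was 5.85 at the lowest, 6.31 at the median and 6.56 at the highest in SIVE, and 5.02, 5.41 and 5.65 in controls. Every SIVE animal lay above every control. The difference was 0.88 ± 0.11 (SE), or 1.84-fold (limma adjusted p = 2.02e-05). IL1RN encodes the interleukin-1 receptor antagonist, a secreted protein that occupies the receptor without signalling. It was at 5.30, 6.21 and 8.10 (lowest, median, highest) in SIVE and 4.19, 4.31 and 4.58 in controls, again without overlap. IL1RN was 2.00 ± 0.30 (SE, log2) or 4.01-fold higher (adjusted p = 0.000178), and its SIVE animals differed far more among themselves (SD 0.947) than its controls (SD 0.153). SIVE 2 and SIVE 7 (7.46) were the highest, and SIVE 8 and SIVE 6 (5.42) the lowest. The order of the animals was not the same for IL1B, where SIVE 2 (6.01) lay below the SIVE median. SIVE 2 is 1 of the 3 animals with high 3′ signal. Without SIVE 2, SIVE 3 and Control 8 IL1RN was higher by 1.74 (limma adjusted p = 0.000201).

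The other members of that family did not pass. On the macaque assembly T2T-MMU8v2.0, 8 measured genes follow one another in the order IL1A, IL1B, IL37, IL36G, IL36A, IL36B, IL36RN and IL1RN. Of these 8 neighbours IL1B and IL1RN rose and 6 did not pass. IL1A, the sister cytokine that binds the same receptor, differed by -0.02 (95% interval -0.28 to 0.24). IL36A differed by -0.21 ± 0.07 (SE, adjusted p = 0.1). IL36A passed as lower in 4 alternative settings, among them the fit without SIVE 2 (-0.25, adjusted p = 0.0131) and the fit without SIVE 2, SIVE 3 and Control 8 (-0.25, adjusted p = 0.0239). IL1R2, the decoy receptor, differed by -0.08 (interval -0.41 to 0.25), and IL1RAP, the accessory chain that IL1B needs to signal, by -0.10 (-0.22 to 0.02). The receptor chain IL1R1 was not analysed here. IL18, which is cut to its active form by the same protease as IL1B, stood at 4.32 ± 0.31 (SD) in the 9 SIVE animals and 3.99 ± 0.28 in the 9 controls, a difference of 0.33 ± 0.13 (SE, adjusted p = 0.16). IL33, an alarm signal released by damaged cells, differed by 0.09 (-0.20 to 0.39), and its receptor IL1RL1 by -0.11 (-0.35 to 0.13).

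Interleukin-15 and its own receptor chain both rose. IL15 supports natural killer cells and memory CD8 T cells, and IL15RA holds it on the cell surface and presents it to neighbouring lymphocytes. The log2 signal of IL15 was 3.48, 3.99 and 5.30 (lowest, median, highest) in SIVE and 3.06, 3.16 and 3.33 in controls. Although dim in both groups, it did not overlap between them. IL15 was 0.92 ± 0.20 (SE, log2) or 1.89-fold higher (limma adjusted p = 0.00853), with SIVE 7 and SIVE 9 (5.00) above the other SIVE animals. IL15RA was at 5.72, 5.99 and 6.68 in SIVE and 5.02, 5.12 and 5.52 in controls. Its groups did not overlap either, and the difference was 0.90 ± 0.13 or 1.86-fold (adjusted p = 0.000115). The order of the SIVE animals was not the same in both genes, for IL15RA was highest in SIVE 2 and SIVE 3 (6.53), of which SIVE 3 was the lowest for IL15.

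The one signalling chain of the IL15 receptor that was measured did not pass. This is IL2RG, common to the receptors of IL2, IL4, IL7, IL9, IL15 and IL21, which was at 6.17 ± 0.33 (SD) in the 9 SIVE animals and 5.89 ± 0.20 in the 9 controls, a difference of 0.28 (95% interval 0.02 to 0.54, adjusted p = 0.195). IL2RB, which IL15 also uses, was not analysed here. IL2RA, a chain of the IL2 receptor on activated and regulatory T cells, differed by -0.11 (-0.32 to 0.11). The other cytokines whose receptors use IL2RG, namely IL2, IL4, IL7, IL9 and IL21, differed by -0.16 to 0.19 and none passed. For IL4 the difference was -0.16 (-0.34 to 0.01), and for IL2, a product of T cells, it was 0.19 (-0.16 to 0.55). The probe sets of IL2 lay far apart in level. The brightest, used here, was at 8.01 in SIVE and 7.82 in controls. The others were at 7.03 and 6.89 (difference 0.14) and at 2.88 and 2.90 (difference -0.01), and none passed.

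Both chains of the interleukin-10 receptor rose, and interleukin-10 itself did not pass the test. IL10 restrains macrophages, IL10RA is the chain that binds it, and IL10RB is a second chain that also serves IL22 and IL26. IL10RA was at 6.78, 7.06 and 7.84 (lowest, median, highest) in SIVE and 5.72, 5.97 and 6.55 in controls, without overlap. The difference was 1.22 ± 0.15 (SE, log2) or 2.33-fold (limma adjusted p = 1.43e-05). IL10RB was at 5.23, 6.26 and 6.74 in SIVE and 4.33, 5.17 and 5.34 in controls. Of the 9 SIVE animals 8 lay above all controls, the exception being SIVE 2. The difference was 1.20 ± 0.17 or 2.3-fold (adjusted p = 0.000118).

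Animals with high 3′ signal were among the highest or lowest for these genes. SIVE 2 and SIVE 3 (7.79) were the highest SIVE animals for IL10RA and Control 8 the highest control, while SIVE 2 and Control 8 were the lowest of their groups for IL10RB and SIVE 3 (6.20) lay among the other SIVE animals. Without these 3 animals the difference was 1.11 for IL10RA and 1.26 for IL10RB, both still past the threshold (adjusted p = 8.44e-08 and 1.8e-06). IL10 was at 7.64 ± 0.20 (SD) in the 9 SIVE animals and 7.99 ± 0.42 in the 9 controls, a difference of -0.35 (95% interval -0.65 to -0.04, adjusted p = 0.177). It passed as lower in 2 of 31 alternative settings, with all 36 arrays in the fit and with quality weights. At its dimmer probe set (4.56 in SIVE, 4.71 in controls) IL10 differed by -0.15 ± 0.08 (SE, limma adjusted p = 0.25). IL22 differed by -0.12 (-0.25 to 0.01) and IL26 by -0.03 (-0.13 to 0.07). IL19, IL20 and IL24, which use other receptors, differed by -0.17, -0.02 and -0.09 and did not pass.

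In the interleukin-6 system the binding chain rose. IL6 is an inflammatory cytokine that binds IL6R, and the pair then engages IL6ST, the signalling chain shared with oncostatin M and leukemia inhibitory factor. IL6R was at 6.66, 7.16 and 7.56 (lowest, median, highest) in SIVE and 6.08, 6.55 and 6.96 in controls. The groups overlapped, with 7 of 9 SIVE animals above all controls. The difference was 0.60 ± 0.13 (SE, log2) or 1.52-fold (limma adjusted p = 0.0077). IL6ST could not be judged closely. It spread widely in SIVE (5.94 ± 0.67, SD, n = 9) and in controls (6.17 ± 0.74, n = 9), and its difference was -0.22 with a 95% interval from -0.86 to 0.42. Control 8 (4.74) and SIVE 2 (5.10) were the lowest of their groups. IL11RA, another receptor that signals through IL6ST, differed by -0.23 (-0.45 to -0.01, adjusted p = 0.206), and IL31RA, which pairs with OSMR, by -0.14 ± 0.07 (SE).

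IL6 gave different answers at its probe sets. The brighter one was at 4.31 ± 0.22 (SD) in the 9 SIVE animals and 4.14 ± 0.17 in the 9 controls and did not pass (0.17 ± 0.09, SE, adjusted p = 0.286). The dimmer one rose by 0.45 ± 0.10 (adjusted p = 0.00788), with 8 of 9 SIVE animals above all controls. With the probe sets averaged IL6 was higher by 0.31 (adjusted p = 0.0294).

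IL13RA1, a chain that binds interleukin-13 and, with IL4R, forms a receptor for both IL13 and IL4, was at 7.70, 8.43 and 8.87 (lowest, median, highest) in SIVE and 7.39, 7.88 and 8.18 in controls. Of the 9 SIVE animals 8 lay above all controls, and SIVE 8 lay below the control mean of 7.87. The difference was 0.58 ± 0.13 (SE, log2) or 1.5-fold (limma adjusted p = 0.00986). Its partner IL4R differed by -0.06 (95% interval -0.25 to 0.13) and its ligand IL13 by -0.11 (-0.25 to 0.03). IL13RA2, the decoy chain for IL13, was at 3.69 ± 0.11 (SD) in the 9 SIVE animals and 3.70 ± 0.21 in the 9 controls.

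**Figure D2:**
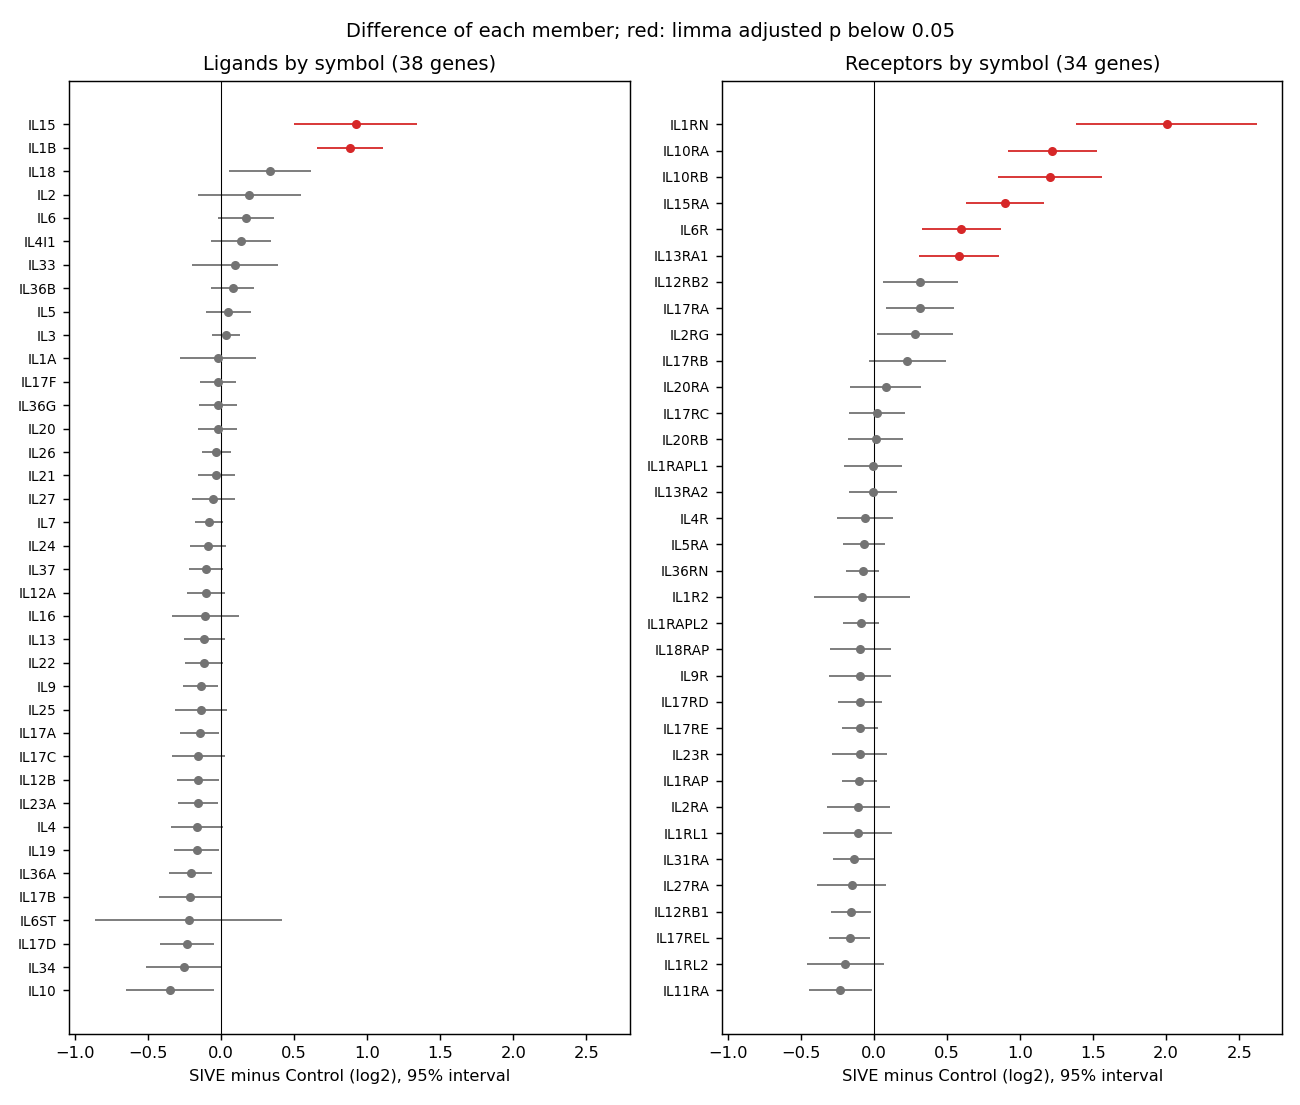
SIVE minus Control (log2) of the 38 ligands and 34 receptors by symbol, with 95% intervals from limma over 9 and 9 animals; red marks genes with an adjusted p below 0.05. The 8 red genes lie between 0.58 and 2.00, and the other 64 between -0.35 and 0.33.

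The interleukin-17 and interleukin-12 branches and the interleukins outside these families held no member past the threshold. The interleukin-17 family holds cytokines that recruit neutrophils and their receptors. Of its 12 genes 0 passed by limma, where 5.72% of all genes were called higher and 1.51% lower. An unadjusted p below 0.05 was found for 5 (41.7%), where 25.6% of all genes had it. Of these 5, IL17RA was higher and 4 were lower. With 12 genes, 0 calls is near the share of all genes. IL17A, the cytokine of T helper 17 cells, was at 3.61 ± 0.07 (SD) in the 9 SIVE animals and 3.76 ± 0.17 in the 9 controls. IL17RA, the receptor chain common to the family, was at 6.28 ± 0.26 in SIVE and 5.96 ± 0.23 in controls, a difference of 0.32 ± 0.11 (SE, adjusted p = 0.114). Control 8 (6.57) stood above the other controls (5.83 to 5.94), and without it IL17RA was higher by 0.39 (adjusted p = 0.0145). It was called higher in 4 of 31 alternatives. In the interleukin-12 branch, which drives interferon gamma in T and natural killer cells, IL12B differed by -0.16 (95% interval -0.30 to -0.01), IL12A by -0.10 (-0.24 to 0.03), IL23A by -0.16 (-0.30 to -0.02) and IL27 by -0.05 (-0.20 to 0.09). IL12RB2, its inducible receptor chain, differed by 0.32 ± 0.12 (SE, adjusted p = 0.144) and passed in 3 of 31 alternatives. Without Control 8 (8.90, against 8.00 to 8.43 in the other controls) it was higher by 0.40 (adjusted p = 0.0212). That fit kept SIVE 2 (8.95) and SIVE 3 (8.81), and without all 3 the difference was 0.31 (adjusted p = 0.0402). The probe sets of IL12RB2 disagree. Its dimmer ones differed by 0.22, 0.11 and -0.21 and did not pass. Control 8 was the lowest control at those with 0.22 (7.20) and 0.11 (6.82). IL34, which feeds microglia through the receptor of colony stimulating factor 1, stood at 7.45 ± 0.30 in SIVE and 7.70 ± 0.24 in controls (-0.26 ± 0.12, adjusted p = 0.235). IL16, a chemoattractant for CD4 cells, differed by -0.11 (-0.34 to 0.12).

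Further probe sets of the same genes were read next. The 72 genes have 118 probe sets, and 30 genes have more than 1. Of the 118, 17 were called higher (14.4%) and 1 lower by limma, where 3.63% of all probe sets were called higher and 1.3% lower. The shares of all probe sets are not limited to those named singly, as the 118 are. Over all genes, each at 1 probe set, 5.72% were called higher. The 8 genes that rose hold 17 probe sets, of which 16 were called higher. The brightest of each gene is among the 16 by choice, since the 8 genes were picked for passing there. IL10RA, IL10RB and IL15RA have no further probe set. All 3 probe sets of IL1B rose, by 0.88, 0.71 and 1.64, and in each the groups did not overlap. The 3 of IL15 rose by 0.92, 0.59 and 1.21, also without overlap, the 3 of IL13RA1 by 0.58, 0.90 and 0.95, and both of IL6R by 0.60 and 0.50. IL1RN varied most, with rises of 2.00 and 0.70 and its remaining probe set at 0.49 ± 0.15 (SE) that did not pass (adjusted p = 0.0637). Averaged over its probe sets, IL1RN was higher by 1.07 (log2). The single probe set called lower belongs to IL37, an interleukin-1 family member that dampens inflammation, and fell by 0.24 ± 0.06 (adjusted p = 0.0147). The 2 other probe sets of IL37 stood at -0.10 and -0.08 and did not pass. Probe sets of 1 gene can share target sequence, so they are not independent readings.

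**Figure D3:**
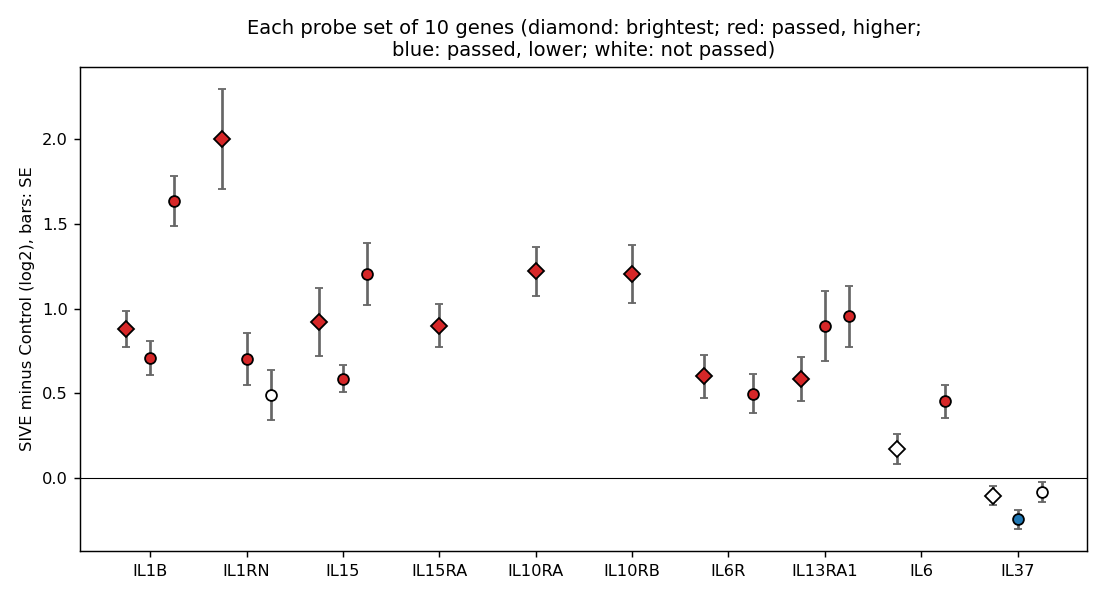
SIVE minus Control (log2, bars SE) at each probe set of the 8 genes that rose and of IL6 and IL37; diamonds mark the brightest probe set, filled red symbols passed as higher, filled blue as lower, and white did not pass. All but 1 of the 17 probe sets of the 8 genes are red, and the 3 of IL1RN run from 0.49 to 2.00. The diamonds of these 8 genes are red by choice, since the genes were picked for passing there.

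Some partners of the interleukins that carry other names were called by limma, where 5.72% of all genes were called higher and 1.51% lower. In lists this short, 1 call is near that share. Of 18 measured receptor chains and cytokines related to the interleukins, 2 rose and none fell in limma, with a median difference of -0.06, against -0.02 over all genes. CSF2RB, the signalling chain shared by the receptors of IL3, IL5 and granulocyte-macrophage colony stimulating factor, rose by 1.57 ± 0.15 (SE, log2, adjusted p = 9.26e-07), while IL3, IL5 and IL5RA differed by 0.04, 0.05 and -0.07 and did not pass. OSMR, which pairs with IL6ST to bind oncostatin M, rose by 1.42 ± 0.11 (adjusted p = 2.13e-08), while OSM differed by -0.22 and LIFR by 0.03. In both CSF2RB and OSMR every SIVE animal lay above every control. Of 18 measured JAK, STAT and SOCS genes 3 rose and none fell, with a median of 0.00. These were STAT2, which relays type I interferon signals, by 0.95 ± 0.14, STAT6, which relays IL4 and IL13, by 0.79 ± 0.14, and PTPN6, a phosphatase that dampens cytokine receptors, by 0.66 ± 0.13. STAT3, which relays IL6 and IL10, stood at 0.87 ± 0.28 and did not pass (adjusted p = 0.0827), nor did JAK2 at 0.68 ± 0.21 (adjusted p = 0.069) or SOCS3, a feedback inhibitor of IL6 signalling, at 0.03 ± 0.09. Of 15 measured genes that mature or relay interleukin-1 family cytokines 1 rose and none fell, with a median of 0.15. It was PYCARD, the adaptor of the inflammasome that leads to cleavage of IL1B, by 0.95 ± 0.22 (adjusted p = 0.0144), while NLRP3 differed by 0.24 ± 0.11. Of 5 measured genes of the interleukin-17 relay NFKBIZ, a nuclear cofactor that IL1B and IL17 induce, rose by 0.57 ± 0.13 and none fell, with a median of 0.07.

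Some markers of cells that make or sense interleukins were called as well, where limma called 5.72% of all genes higher and 1.51% lower. In lists this short, 1 call is near that share. Of 14 measured microglia and macrophage markers 5 rose and none fell, with a median difference of 0.25. The mean log2 level of the 14, with the 5 included, was 7.09 to 7.60 in controls and 7.56 to 8.23 in SIVE animals. LYZ rose by 2.71 ± 0.30 (SE, adjusted p = 4.71e-06), C1QA by 2.36 ± 0.25, PTPRC by 1.52 ± 0.16 and CD14 by 1.18 ± 0.22. Of the 9 that did not pass, 6 had a difference below 0, the microglia markers P2RY12 (-0.44 ± 0.46), CX3CR1 (-0.15 ± 0.19) and TMEM119 (-0.10 ± 0.11), and ITGAM (-0.35 ± 0.20), MRC1 (-0.14 ± 0.09) and CD68 (-0.05 ± 0.10). Of 12 measured T and natural killer cell markers GZMB rose by 2.36 ± 0.34 and 11 did not pass. The median difference of the 12 was -0.11, against -0.02 over all genes. Their mean level, with GZMB included, was 6.46 to 6.80 in controls and 6.56 to 7.01 in SIVE. CD3D, CD3E and CD3G were not analysed here. Of 7 B and plasma cell markers JCHAIN rose by 2.81 ± 0.41 and 6 did not pass, with a median difference of 0.14. The mean level of the 7, with JCHAIN included, was 5.12 to 5.35 in controls and 5.23 to 6.09 in SIVE. Endothelial and pericyte markers had 3 of 7 higher (mean level 6.31 to 7.04 in controls, 6.55 to 7.35 in SIVE), with a median difference of 0.27. Astrocyte markers had 2 of 8 higher and 1 lower (10.62 to 11.09 and 10.88 to 11.07), with a median of 0.08. The part of these cells in the rises of IL1B, IL1RN, IL15, IL15RA, IL10RA, IL10RB, IL6R and IL13RA1 was not tested.

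The SIVE animals differed in how far the 8 genes rose. SIVE 8, an untreated animal, was the lowest of its group in 5 of the 8 genes, and SIVE 2 the highest in 3. Averaged over the 8 genes, the difference from the control mean ran from 0.56 (log2) in SIVE 8 and 0.79 in SIVE 6 to 1.23 in SIVE 2 and 1.46 in SIVE 7. Among controls it ran from -0.18 in Control 7 to 0.12 in Control 9. The genes were chosen for their difference, so this range describes the animals and is no test.

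The anti-CD8 label was considered next, because it is unevenly spread over the groups and CD8 T cells are a target of IL15. Among animals without it (5 SIVE, 7 controls), IL1B, IL1RN, IL15, IL15RA, IL10RA and IL10RB rose, 6 of 72 members (8.33%) where limma called 3.64% of all genes higher, and 0 members fell where 1.13% of genes were lower. IL6R and IL13RA1 stood at 0.47 ± 0.15 (SE, log2) and 0.52 ± 0.17 and did not pass (adjusted p = 0.113 and 0.106). Among animals with the label (4 SIVE, 2 controls) IL10RA rose by 1.29 ± 0.24 (adjusted p = 0.0125) and IL15RA by 0.91 ± 0.21 (adjusted p = 0.0468), 2 of 72 (2.78%) where 1.38% of genes were called higher, and 0 members fell where 0.127% of genes were lower. The call of IL15RA is close to the threshold. Only IL10RA passed in the fits without Control 1, 2, 3, 4, 6 or 7 or without SIVE 3, 5, 6 or 9, each left out alone. IL10RA and IL10RB passed without SIVE 2. Without Control 8 or Control 9 only 1 control with the label is left, so the calls of these fits are not read. Without Control 9 that animal is Control 8, which had the highest 3′ minus 5′ signal (1.45). All 3 of IL10RA, IL10RB and IL15RA passed without Control 5. With age as a covariate 0 members passed. These comparisons share 1 estimate of the spread over all 18 animals.

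The SIVE effect itself was not shown to differ with the label. For the interaction 0 of 72 members and 0% of all genes passed by limma. An unadjusted p below 0.05 was found for 2 members, without a count over all genes at that unadjusted threshold. The 2 were IL10, at -0.53 ± 0.16 (SE, log2) without and 0.12 ± 0.24 with the label (difference 0.66 ± 0.29, unadjusted p = 0.0392), and IL18, at 0.12 ± 0.15 without and 0.70 ± 0.22 with it (difference 0.58 ± 0.27, unadjusted p = 0.044). Their adjusted p was 1.0. The values of IL10 by label are those of its brighter probe set only. Control 8, which carries the label, was at 7.46 there, where controls ran from 7.38 to 8.53. At the dimmer probe set of IL10 it was the highest control (5.06, lowest 4.43), so the 2 probe sets place this animal differently. IL1RN differed by 1.90 ± 0.38 without the label and 2.01 ± 0.56 with it. IL15 was 1.25 ± 0.21 without and 0.52 ± 0.31 with it, a difference of -0.74 with a 95% interval from -1.52 to 0.05.

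**Figure D4:**
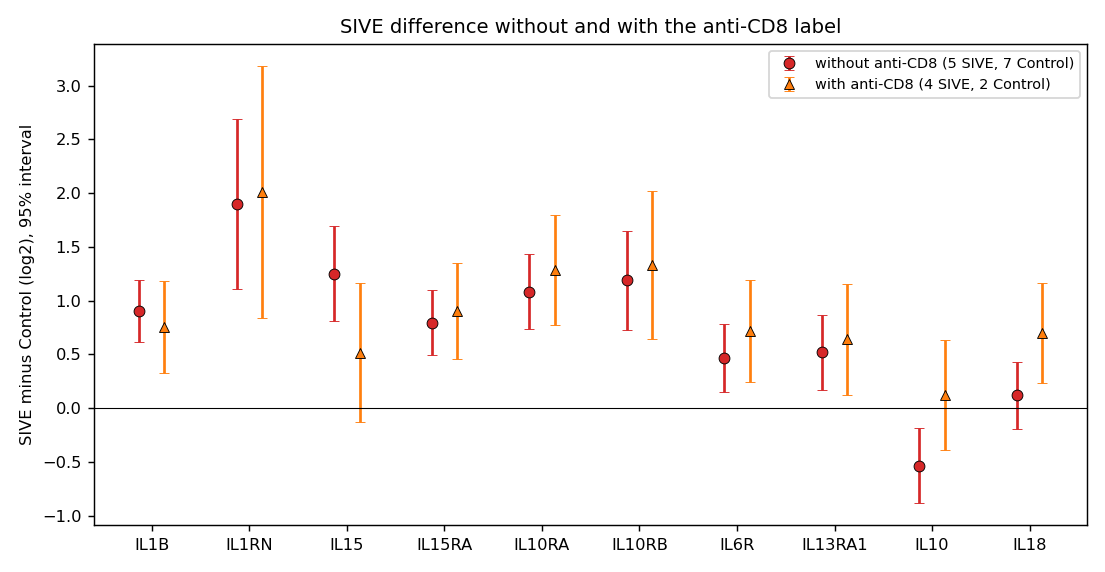
SIVE minus Control (log2) without the anti-CD8 label (circles, 5 SIVE and 7 controls) and with it (triangles, 4 SIVE and 2 controls), with 95% intervals from limma, for the 8 genes that rose and for IL10 and IL18. The intervals of each pair overlap, and IL15 stands at 1.25 and 0.52.

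Within the SIVE group 0 of 72 members and 0% of all genes passed between treated and untreated animals by limma. An unadjusted p below 0.05 was found for 13 members. All genes were not counted at that unadjusted threshold here, so the 13 are not read as a result about interleukins. IL15 was at 3.68 ± 0.25 (SD, n = 4) in treated and 4.44 ± 0.67 (n = 5) in untreated SIVE animals, a difference of -0.76 ± 0.24 (SE, unadjusted p = 0.00534, adjusted p = 0.304). The ranges overlapped, from 3.48 to 4.03 and from 3.75 to 5.30. Its other probe sets differed by -0.12 and -0.50. With all 36 arrays in the fit IL15 was the 1 member called. IL15RA differed the other way, with 6.31 ± 0.36 (n = 4) in treated and 5.95 ± 0.30 (n = 5) in untreated animals (0.35 ± 0.16, adjusted p = 0.322). Its highest treated animals were SIVE 2 (6.68) and SIVE 3 (6.53), those with high 3′ signal, while SIVE 1 (6.09) and SIVE 4 (5.92) lay within the untreated range of 5.72 to 6.46. The part of RNA quality in this difference was not tested. Age and treatment cannot be told apart here, since the treated ones were each 6 years old and the untreated 2 to 5.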

How the data were processed

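The deposited values are RMA signals on the log2 scale, 1 column per array, per the submitters' processing notes and the range of the values; the RMA version and probe definitions are not given in the sources used here. Of 52865 probe sets, 158 control and reporter sets were left out. Symbols came from the platform annotation, and all 118 member probe sets kept their symbol in RefSeq's table for T2T-MMU8v2.0. The 2 arrays of an animal were averaged, and a linear model with moderated variances (limma 3.58.1, R 4.3.3) was fitted to the 18 animals for 52707 probe sets; p-values are two-sided and Benjamini-Hochberg adjusted. The anti-CD8 comparisons used 1 mean per group and label. Named genes are all members that passed, their known partners, a set of well-known interleukins and genes whose probe sets disagree; IL17RA, IL12RB2, IL36A and further members were added after their values were seen. Members and lists were chosen with earlier results of these data known. Permutation tests used scipy 1.17.1. Precision is limited by the number of animals and by the spread between them. Replicate numbers are shared by both groups but do not pair the animals. A planned promoter motif search was not run.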

Additional observations from a re-analysis of the deposited data

Results flagged for a closer look

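In 19 of 144 groups (72 genes in SIVE and in controls) 1 animal stood far from the other 8 by Dixon's test, which flags about 1 in 20 groups by chance. SIVE 2 was that animal in 8 of the 19 and Control 8 in 6, 2 of the 3 animals with high 3′ signal; the part of RNA quality in these values was not tested. SIVE 2 was lowest of its group for IL10RB (5.23), IL1R2 (7.70) and IL2 (7.18), and highest for IL12RB1 (6.86), IL17A (3.78), IL23R (4.61), IL36A (5.28) and IL37 (6.36). Control 8 was highest for IL10RA (6.55), IL12RB2 (8.90), IL17RA (6.57) and IL4I1 (5.33), and lowest for IL1R2 (7.46) and IL2 (6.78). The remaining 5 were Control 5, highest for IL1RL1 (6.69) and IL6 (4.53), SIVE 6, highest for IL12A (3.95), SIVE 8, highest for IL5 (5.67), and SIVE 9, lowest for IL34 (6.73). Of these genes IL10RA and IL10RB passed in SIVE against control, and both passed without these 3′-high animals too.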

How the results depend on the processing

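All 8 called genes passed in 30 of 31 alternatives; in the other, limited to probe sets at or above the median level, IL15 was left out as too dim and the other 7 passed. The count of members called was 8 to 10 when 1 animal was left out, 8 with the replicate number as a block (replicate block), and 16 with quality weights per animal, where 4 were lower. Same-numbered animals did not deviate together: 0 of 9 pairs correlated above 0.1. With all 36 arrays and the animal as a random block, 12 members were called without anti-CD8 (6 as reported), 5 with it (2 as reported) and 1 for anti-CD8 within SIVE (0 as reported). The shares of all genes called in these alternatives are not given here. Leaving out 1 animal gave 1 to 3 calls with anti-CD8, and age as a covariate gave 0. The 3′ minus 5′ difference between the groups, 0.0271 as reported, was -0.0418 for EEF1A1 alone and -0.0234 without SIVE 2, SIVE 3 and Control 8, a change of direction.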

Other observations

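Most interleukin genes that did not pass sat slightly below zero. Of the 72 members 49 (68.1%) had a lower mean in SIVE than in controls, against 55.6% of all genes and 72.9% of the 3891 genes whose group means both lay below the median level, where 37 of the members lie. With each array centred on its median the share was 59.7% of members, 49.5% of all genes and 65.1% of the dim genes. With quantile normalization it was 61.1%, 58.2% and 60.8%. The part of signal level in these shares was not tested.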
